A study of Mus musculus with 16 samples.

Results

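Gfi1 and Gfi1b are paralogous zinc-finger repressors of blood cell development, and the 2 probes described here are all noncontrol probes that the array design annotates to either gene, 1 for each, out of 39429 noncontrol probes on the array. They were measured on 16 single-color mouse expression arrays, 4 for each of 4 groups, with RNA from progenitors sorted from the bone marrow (BM) of female C57/Bl6 mice. The progenitors were macrophage-dendritic cell progenitors (MDPs), which can still form monocytes and macrophages, and common dendritic cell progenitors (CDPs), a later stage. Tumor-bearing mice carried an orthotopic mammary tumor of 1.5 cm diameter grown from PyMT-B6, a single line derived from the MMTV-PyMT transgenic model, in which a mammary promoter drives the polyoma middle T antigen, on the C57/Bl6 background, and the controls were age-matched mice without tumors. Per the legend of the study's array figure each sample pooled a pair of mice. The labels speak of independent experiments, so p-values measure the spread between such pools. The comparisons ask how far the repressors differ between the progenitors, and whether a tumor elsewhere in the body moves them.

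GFI1 and GFI1B carry a short N-terminal SNAG domain that recruits the histone demethylase LSD1 and its CoREST and histone deacetylase partners to DNA, and their zinc fingers read a motif with the core AATC. GFI1 is needed for neutrophil formation and restrains monocytic genes in granulocyte precursors, whereas GFI1B is needed for red cells and platelets. Each can repress its own gene and that of the other.

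The probes are shown here since every value below rests on them. Each is 60 bases long and lies on the minus strand of mouse build mm9, at chr5:108145719-108145778 for Gfi1 and chr2:28464982-28465041 for Gfi1b. The first 30 bases of each are:
Gfi1 probe: gtgagggttgtagacgttcctaaatcttct
Gfi1b probe: agccatgatagtagaagcctgctcctatca

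The promoters show where the AATC core lies in the genes that the repressors are known to bind themselves. These are the 250 bases before a RefSeq start site on GRCm38.p6, minus strand, at chr2:28621983-28622232 for Gfi1b and at chr5:107725806-107726055 for the upstream of the 2 Gfi1 starts, with AATC or its reverse complement GATT in capitals:
Gfi1b promoter: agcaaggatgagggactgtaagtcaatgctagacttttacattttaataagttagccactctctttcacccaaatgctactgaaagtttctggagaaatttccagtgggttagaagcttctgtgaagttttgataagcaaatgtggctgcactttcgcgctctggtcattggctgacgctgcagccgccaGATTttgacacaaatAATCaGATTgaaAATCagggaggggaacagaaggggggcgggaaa
Gfi1 promoter: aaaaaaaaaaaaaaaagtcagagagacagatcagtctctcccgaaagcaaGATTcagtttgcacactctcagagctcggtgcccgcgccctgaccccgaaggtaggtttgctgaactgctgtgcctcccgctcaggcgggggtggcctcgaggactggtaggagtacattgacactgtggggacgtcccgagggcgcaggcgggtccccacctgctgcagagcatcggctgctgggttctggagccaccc

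The Gfi1b window held 4 matches to AATC, all within 60 bases of the start, and 7.04% of 32851 promoter windows of this length held at least as many. It also held 1 match each to GATAAG (6.55% of windows hold it), CCAAT (33.8%) and AAATCA (12.4%), the last overlapping an AATC match. The Gfi1 window printed held 1 AATC match, as at least 1 is found in 69% of windows, and that of the other Gfi1 start held 0. These are matches of letters on both strands, not measured binding sites.

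Values below are log2 signals relative to the 75th percentile of the array. A probe was called when limma gave a Benjamini-Hochberg false discovery rate under 0.05 over the 27433 tested probes and a fold change above 1.5. Arrays were printed on 4 slides: slides 2 and 3 hold 1 array of each group, slide 1 holds 2 tumor-bearing MDP arrays and 0 tumor-bearing CDP arrays, and slide 4 the reverse. Slide accounted for a median of 48.5% of the variance of a tested probe. All 7 markers of the progenitor label, among them Flt3, Csf1r, Irf8 and Kit, were well above background on every array.

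Gfi1 was called between the progenitors and with a tumor in CDPs. Its signal was high in MDPs, with values in tumor-free mice of 1.27, 1.42, 0.95 and 0.99 (replicates 2 to 5) and in tumor-bearing mice of 1.44, 1.39, 1.77 and 0.94. In CDPs it was far lower, at -3.28, -3.48, -3.81 and -2.47 without a tumor and at -1.20, -0.96, -1.07 and -2.89 with a tumor. The group means ± SD (n = 4 each) were 1.15 ± 0.22 in tumor-free MDPs, 1.38 ± 0.34 in tumor-bearing MDPs, -3.26 ± 0.57 in tumor-free CDPs and -1.53 ± 0.91 in tumor-bearing CDPs. No CDP array reached any MDP array, while the pair of MDP groups overlapped. The probe was well above background on all 16 arrays.

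**Figure D1:**
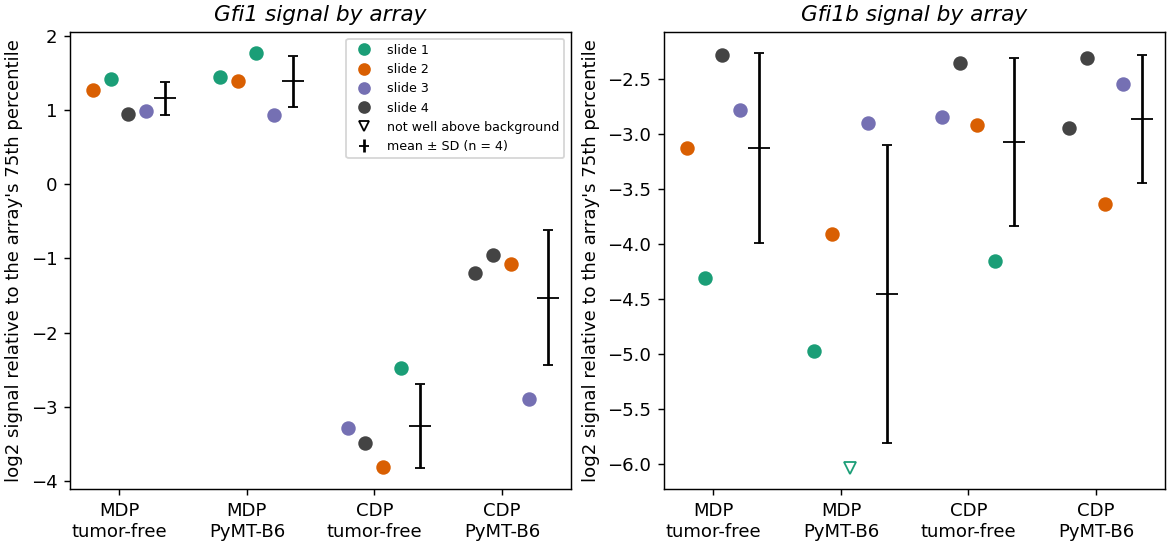
Log2 signal of Gfi1 (left) and Gfi1b (right) relative to the array's 75th percentile, 1 point for each of the 4 arrays of a group in order of replicate number, colored by slide, with the mean ± SD beside them (the y axes differ). Gfi1 separates MDPs from CDPs, with 3 of 4 tumor-bearing CDP arrays above every tumor-free CDP array, and Gfi1b is lowest on slide 1, where the open triangle marks the 1 array not well above background.

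In tumor-free mice Gfi1 was 21.4-fold lower in CDPs than in MDPs (95% interval 12 to 38). The log2 difference was -4.42 ± 0.39 (SE), with a limma adjusted p of 1.52e-05, and the exact two-sided permutation p was 0.0286, the smallest that 4 against 4 arrays allow. Gfi1b was not called, so 1 of the 2 genes was called, against 6.1% of all tested probes in this comparison (3.16% lower and 2.94% higher in CDPs), and groups did not overlap for 13.3% of probes. Among falls from MDPs to CDPs, that of Gfi1 ranked 20 of 27433. The difference held within each slide, at -3.89, -5.07, -4.27 and -4.43 on slides 1 to 4. In sorted bulk samples, fewer cells that express Gfi1 and less Gfi1 RNA per cell cannot be told apart.

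With a tumor, the gap between the progenitors was 7.54-fold (4.23 to 13.4). The log2 difference was -2.91 ± 0.39 (SE), with a limma adjusted p of 0.000444 and an exact permutation p of 0.0286. Again 1 of the 2 genes was called, against 7.26% of tested probes (3.71% lower and 3.56% higher in CDPs), and groups did not overlap for 14.1%. Within the slides that held both groups the difference was -2.46 (slide 2) and -3.83 (slide 3).

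In CDPs Gfi1 was 3.32-fold higher with a tumor than without (95% interval 1.87 to 5.91). The log2 change was 1.73 ± 0.39 (SE), with a limma adjusted p of 0.0382, and 1 of the 2 genes was called, against 1.8% of tested probes (0.802% higher and 0.999% lower). Tumor-bearing CDP replicates 2, 3 and 4 lay above every control, and replicate 5, at -2.89, lay within the control range, so the groups overlapped, as they did not for 11.1% of probes, and the exact permutation p was 0.0571. Within slides the change was 2.73 on slide 2, 0.39 on slide 3, which holds replicate 5, and 2.41 on slide 4. The call was close to the threshold: of the 8 fits that each left out a CDP array, 2 kept it, with changes from 1.54 to 2.19 and adjusted p from 0.00187 to 0.133. Without tumor-bearing replicate 5 the change was 2.19, and with slide as a block it was 1.82, with an adjusted p of 0.0148.

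**Figure D2:**
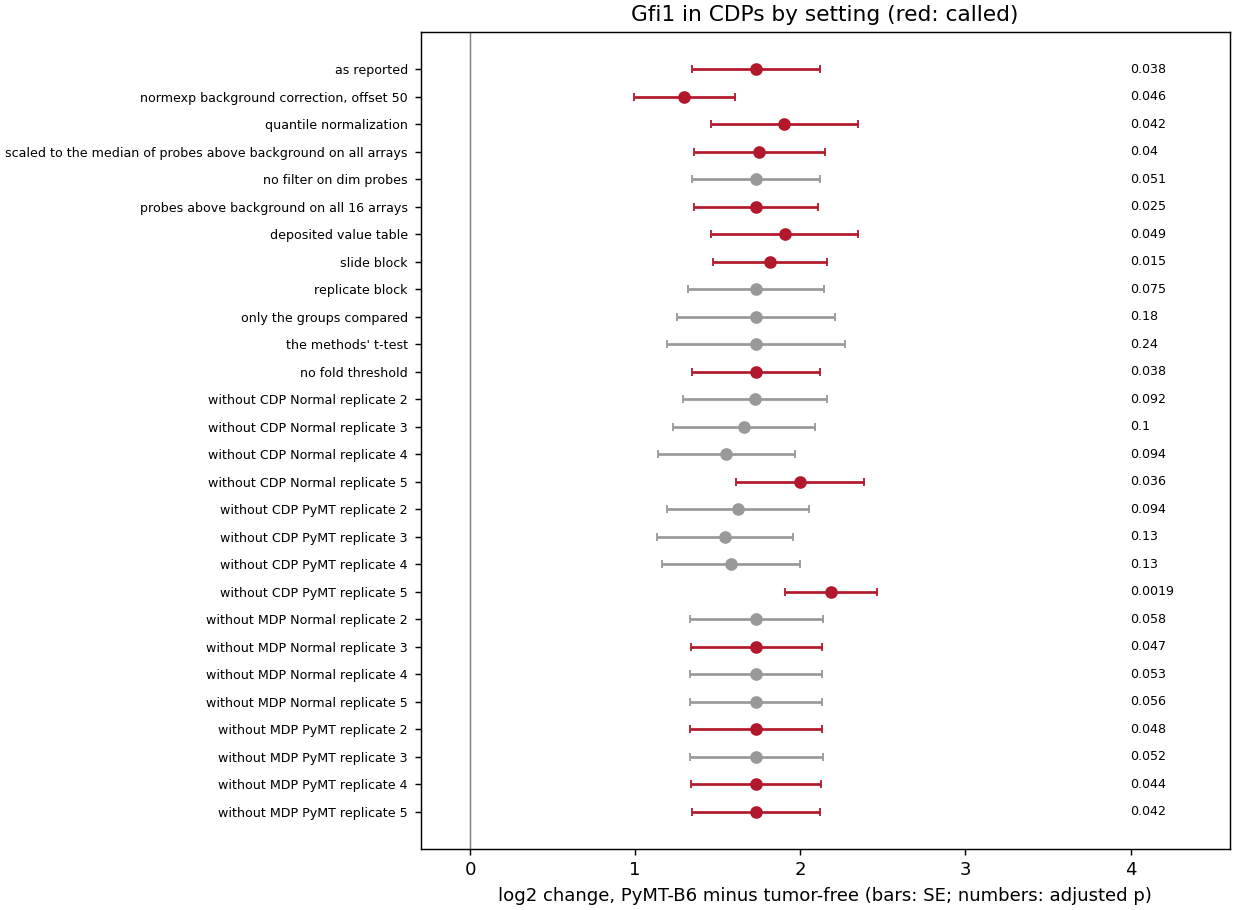
Log2 change of Gfi1 between tumor-bearing and tumor-free CDPs (x axis, bars are SE) as reported and under each alternative or with 1 array left out (y axis), with adjusted p at the right and called fits in red. The change stays between 1.30 and 2.19, while the adjusted p runs from 0.00187 to 0.237.

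In MDPs Gfi1 did not pass the test. The log2 change with a tumor was 0.23 ± 0.39 (SE), with a 95% interval from -0.60 to 1.06 and a limma adjusted p of 0.796, and 0 of the 2 genes were called, against 0.0656% of tested probes (0.0328% higher). The difference of the tumor changes, CDPs minus MDPs, was 1.50 ± 0.55 (SE), with an unadjusted limma p of 0.0159 and an adjusted p of 0.748, so a difference between the progenitors' responses was not called. The comparisons share groups, such as the tumor-free CDPs in the first and the third, and are not independent. In that comparison 0 of the 2 genes and 0.0146% of probes were called.

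Gfi1b was dim in every group and passed no test. In tumor-free MDPs it stood at -3.13, -4.30, -2.28 and -2.78 and in tumor-bearing MDPs at -4.97, -3.91, -6.04 and -2.90 (replicates 2 to 5). In CDPs the values were -2.84, -2.35, -2.92 and -4.15 without a tumor and -2.95, -2.31, -3.63 and -2.54 with a tumor. The arrays of all 4 groups overlapped. The probe was well above background on 15 of the 16 arrays, the exception being tumor-bearing MDP replicate 4, its lowest value.

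The group means ± SD of Gfi1b (n = 4 each) were -2.86 ± 0.58 in tumor-bearing CDPs, -3.07 ± 0.76 in tumor-free CDPs, -3.12 ± 0.86 in tumor-free MDPs and -4.45 ± 1.35 in tumor-bearing MDPs. No neighbors in that order differed beyond their spread. The CDP minus MDP difference was 0.06 (95% interval -1.27 to 1.38, limma adjusted p of 1.0) in tumor-free mice and 1.59 (0.27 to 2.92, adjusted p of 0.128) in tumor-bearing mice. The change with a tumor was 0.21 (-1.12 to 1.53, adjusted p of 0.917) in CDPs and -1.33 (-2.66 to -0.0040, adjusted p of 0.480) in MDPs, and the difference of these was 1.54 (-0.34 to 3.41, adjusted p of 0.748). These intervals are wide and do not show that the groups are alike.

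Slide moved with Gfi1b. Slide accounted for 81.0% of the variance of Gfi1b and group for 37.7%, against 11.5% and 93.8% for Gfi1. Each share was computed alone, and the shares overlap, since the groups are unequally spread over slides 1 and 4. The 4 arrays of slide 1 had a mean of -4.87, against -3.40, -2.76 and -2.47 on slides 2, 3 and 4. Within slides the tumor difference in MDPs was -1.20 on slide 1, -0.78 on slide 2 and -0.12 on slide 3, and with slide as a block the change was -0.80, with an adjusted p of 0.181. The CDP minus MDP difference with a tumor compares groups that are unequally spread over slides 1 and 4. On the slides that held both it was 0.28 (slide 2) and 0.35 (slide 3), and with the block it was 0.53 (adjusted p of 0.355) in place of 1.59. The difference of the tumor changes was 0.47 with the block (adjusted p of 0.978) in place of 1.54.

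**Figure D3:**
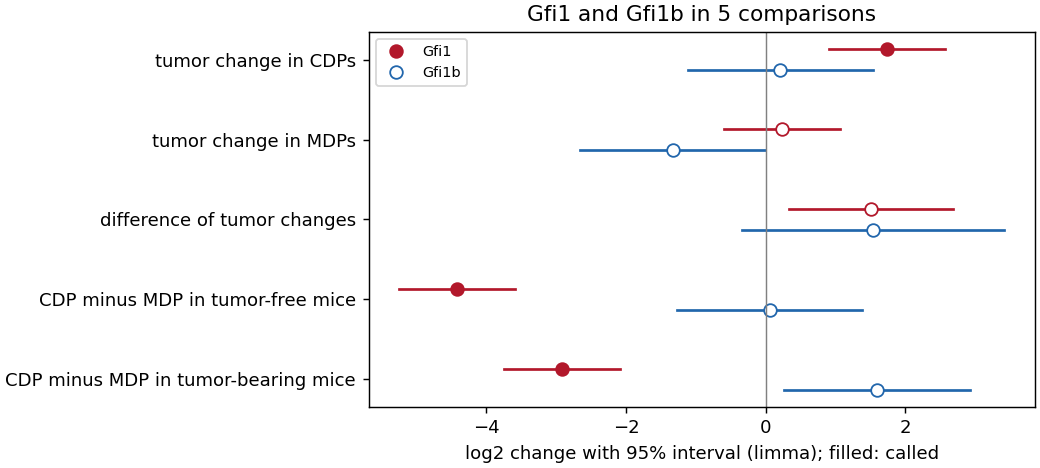
Log2 change (x axis) of Gfi1 (red) and Gfi1b (blue) in the 5 comparisons (y axis), with 95% intervals from limma, filled points where the probe was called. Gfi1 was called in 3 comparisons, at -4.42, -2.91 and 1.73, and Gfi1b in 0.

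Of the corepressors of the SNAG domain, Zmym3 was called with a tumor, and Cbfa2t3 and Rcor1 were called between the progenitors. Of 19 listed partners 18 were tested. With a tumor 1 of them was called lower in CDPs, where 0.999% of all probes were. In MDPs 0 were called, against 0.0656% of all probes. The median changes were -0.27 in CDPs and -0.12 in MDPs, beside 0.08 and -0.12 over all probes. The 1 that fell was Zmym3, a zinc-finger subunit of LSD1 complexes, at -0.98 (limma adjusted p of 0.0497), but a second Zmym3 probe stood at -0.08. The core members were not called in CDPs with a tumor: Kdm1a, which encodes LSD1, had a change of -0.21, Rcor1, which encodes CoREST, of -0.40, and the deacetylase gene Hdac1 of -0.20. Between progenitors Cbfa2t3, which encodes the corepressor ETO2, was higher in CDPs by 1.02 without and 0.76 with a tumor (adjusted p of 0.000742 and 0.00591), and Rcor1 was lower in CDPs of tumor-bearing mice by -0.73 (adjusted p of 0.0460), whereas its second probe, at -0.34, was not called.

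Of the genes reported as GFI1 or GFI1B targets, Socs3 and Cdkn1a were called with a tumor, both in CDPs. Of 24 listed 22 were tested, and in CDPs 2 were called higher with a tumor and 0 lower, against 0.802% and 0.999% of all probes, with a median change of 0.18. Socs3, a feedback inhibitor of cytokine receptor signaling, rose by 3.38 ± 0.55 (SE, adjusted p of 0.00850), and Cdkn1a, which encodes the cell cycle inhibitor p21, rose by 1.01 ± 0.22 (adjusted p of 0.0337). In MDPs 0 of the 22 were called, against 0.0656% of all probes, and at such a share 0 calls say little. Spi1, which encodes PU.1, a change of 0.22, Irf8, a dendritic and monocytic factor, of -0.02, Csf1r, the receptor of macrophage colony-stimulating factor, of -0.21 and Id1, an inhibitor of basic helix-loop-helix factors, of 1.73 were not called in CDPs, the last with an adjusted p of 0.0625. Between progenitors of tumor-free mice 1 of the 22 was higher and 2 were lower in CDPs, against 2.94% and 3.16% of all probes. Id2, which antagonizes E proteins, was at least 5.38-fold higher in CDPs without a tumor, as it was not well above background on any tumor-free MDP array, and it was higher by 3.80 with a tumor. Meis1, a homeobox factor of stem cells, was lower in CDPs by -0.96 without and -1.29 with a tumor.

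Of 16 tested factors known to act on the Gfi1 and Gfi1b loci, 4 were lower and 0 higher in CDPs than in MDPs of tumor-free mice, and 3 were lower and 0 higher with a tumor, where 3.16% and 3.71% of all probes were called lower. Across alternatives 1 to 5 and 2 to 5 of the 16 were called. Tal1, a hematopoietic basic helix-loop-helix factor, was lower by -1.28 and -0.95 in the respective states. Cebpe, a factor of late granulopoiesis, was lower by -1.73 without a tumor (adjusted p of 0.0131), and its tumor change in CDPs of 0.62 was not called. Erg, an ETS factor of stem and progenitor cells, fell by 3.64 on the log2 scale in CDPs with a tumor (adjusted p of 0.0113), and was well above background on 2 of the 4 tumor-bearing CDP arrays. It was the only 1 of the 16 called with a tumor in either progenitor. Over all probes 0.999% were called lower in CDPs and 0.0656% in either direction in MDPs.

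Of the granulocyte genes, 3 rose beside Gfi1 in CDPs of tumor-bearing mice. Of 18 listed 15 were tested, and 3 were called higher, 0 lower and 12 not called (0.802% of all probes were called higher), with a median change of 0.62 beside 0.08 over all probes. Lcn2, a siderophore-binding protein of neutrophil granules, rose by 2.70 ± 0.35 (SE, adjusted p of 0.00185), Mmp8, neutrophil collagenase, by 1.87 ± 0.27 (adjusted p of 0.00360), and Elane, neutrophil elastase, by 1.11 ± 0.22 (adjusted p of 0.0227). The granule genes Camp, Ltf and Ngp had changes of -0.65, -0.45 and -0.25 and were not called, and between 0 and 5 genes of the list were called across alternatives. In MDPs Lcn2 was the only gene of the list called, at 2.16 (adjusted p of 0.0489), where 0.0328% of all probes were called higher. S100a9, S100a8 and Mmp8 had changes in MDPs of 2.81, 1.95 and 1.03 that were not called (adjusted p of 0.443, 0.336 and 0.240). The summed level of the 15 genes, in units of the array's 75th percentile, was 93.5 to 153 in tumor-free CDPs and 165 to 236 in tumor-bearing CDPs, groups that did not overlap, and 132 to 218 and 136 to 245 in the corresponding MDPs. Tumor-bearing CDP replicate 5, with Gfi1 in the control range, had the lowest sum of its group, 165. This separation was not particular to granulocyte genes, and groups did not overlap for 11.1% of single probes in this comparison. Sums of the partners (26.7 to 31.0 without and 22.2 to 24.7 with a tumor) and of the progenitor markers (53.1 to 65.3 and 44.5 to 50.4) also separated in CDPs. Both were lower with a tumor, and the sums of the remaining lists overlapped. The part of granulocyte RNA in the Gfi1 change was not tested. Like Gfi1, Elane was lower in CDPs than in MDPs, by -1.85 without a tumor and -0.81 with a tumor. The list did not move as a whole. Without a tumor 1 of the 15 genes was called higher and 3 lower in CDPs, and 9 had positive differences (median 0.10). With a tumor 2 were called higher and 1 lower, and 10 had positive differences (median 0.45). Over all probes 2.94% were called higher and 3.16% lower without a tumor, and 3.56% and 3.71% with a tumor.

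No erythroid or megakaryocytic gene, the setting in which GFI1B is known, was called with a tumor, while most erythroid values were lower. Of 13 erythroid genes tested 0 were called in CDPs or MDPs, where 1.8% and 0.0656% of all probes were called. At such shares 0 calls in a list of this length say little. Of the 13 genes, 9 and 11 were negative, with medians of -0.75 and -0.42, beside 0.08 and -0.12 over all probes. The hemoglobin gene Hba-a1 had a change in CDPs of -1.44 (adjusted p of 0.111). Of 11 megakaryocytic genes 0 were called in either, with medians of -0.21 and -0.61. Gata1, the master erythroid factor, had a change in CDPs of -0.96, the platelet chemokine gene Pf4 of -0.95 and the platelet integrin gene Itga2b of -0.44. Between progenitors of tumor-free mice 2 of the 13 erythroid genes were lower in CDPs, where 3.16% of all probes were called lower. Car1, which encodes carbonic anhydrase 1, was lower by -3.32 and the erythroid factor Klf1 by -2.77. Klf1 was well above background on 1 of the 4 tumor-free CDP arrays, so that the size of its difference is uncertain. With a tumor Klf1 was at least 1.59-fold lower and the thrombin receptor gene F2r, the only megakaryocytic gene called, at least 1.54-fold lower in CDPs, both not well above background on any tumor-bearing CDP array. The summed erythroid level was 6.52 to 14.5 (median 11.6) in tumor-free and 4.81 to 7.58 (5.61) in tumor-bearing CDPs, and 5.79 to 9.31 (9.11) and 5.0 to 7.26 (6.38) in the corresponding MDPs, groups that overlapped in both progenitors.

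**Figure D4:**
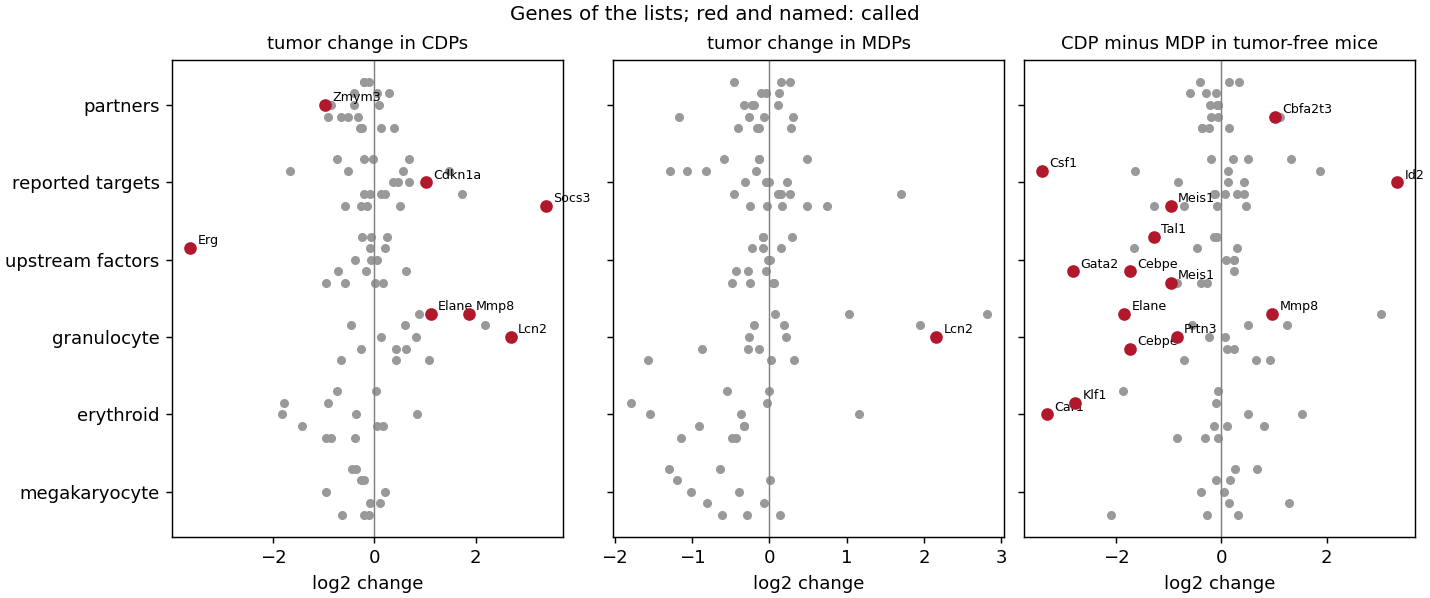
Log2 change (x axis) of each tested gene of 6 lists (y axis, points spread vertically for legibility) for the tumor change in CDPs, the tumor change in MDPs and the CDP minus MDP difference in tumor-free mice, with called genes in red and named. In CDPs the called granulocyte genes Elane, Mmp8 and Lcn2 lie to the right, at 1.11 to 2.70, and 0 erythroid or megakaryocytic genes were called with a tumor.

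Markers of other cell types were called between the progenitors. With a tumor 0 of 9 lymphoid, 0 of 5 mast cell and basophil and 0 of 7 monocyte genes were called in either progenitor. The shares called over all probes were 1.8% in CDPs and 0.0656% in MDPs. In tumor-free mice Hdc, the histamine-forming enzyme of mast cells and basophils, was lower in CDPs by -4.22, the basophil protease gene Mcpt8 by -1.15 and the cytotoxic granule gene Nkg7, the only lymphoid gene called, by -3.12. These are the called members, and the lists did not move as a whole: 6 of the 9 lymphoid and 2 of the 5 mast cell and basophil genes had positive differences, up to 1.75 for Thy1, a T cell surface protein, and 1.22 for Fcer1a, the IgE receptor alpha chain, both not called. The monocyte genes Lyz2, lysozyme, and Klf4, a monocyte factor, were higher in CDPs by 2.29 and 1.98 and Ccr2, a chemokine receptor, by 1.0, and Fcgr1, a high-affinity Fc receptor, was higher by 2.48 with a tumor. In all, 3 of the 7 monocyte genes were higher in CDPs without and 5 with a tumor, against 2.94% and 3.56% of all probes. Of the 7 progenitor markers 2 were called lower and 0 higher in CDPs in each state, against 3.16% and 3.71% of all probes called lower. Kit, the stem cell factor receptor, was lower by -2.59 without and -3.81 with a tumor, and Cd34 by -1.15 and -1.96. The list did not move as a whole: 5 and 4 of the 7 had positive differences, with medians of 0.41 and 0.33. With a tumor Kit fell by 1.34 on the log2 scale in CDPs, the only 1 of the 7 called. Flt3, the receptor that drives dendritic cell formation, had a tumor change in CDPs of -0.79 that was not called. Of the other SNAG-domain genes only Snai1 and Insm2 were tested, 2 of 7, with tumor changes in MDPs of -0.87 and -0.43, and neither was called in any comparison.

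Across the 16 arrays and 20193 genes, the patterns most like that of Gfi1 were those of Fkbp11, an endoplasmic reticulum chaperone gene (Pearson r of 0.971), Prodh, proline dehydrogenase (0.966), Sfxn1, a mitochondrial serine transporter (0.964), Cd320, the receptor for vitamin B12-bound transcobalamin (0.963), and Dio2, a thyroid hormone deiodinase (0.962). With slide means subtracted these correlations were 0.990, 0.971, 0.968, 0.975 and 0.966. Prodh and Dio2 also rose in CDPs with a tumor, by 0.98 and 1.85. The most opposed were Cd7, an immunoglobulin-family surface protein (-0.974), Selplg, the P-selectin ligand (-0.967), and Elmo2, a regulator of cell engulfment (-0.958). The arrays share groups and slides, so these values are descriptions.

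For Gfi1b the most similar genes were Col9a2, a collagen chain (0.984), the predicted gene Gm4354 (0.980), Shank3, a synaptic scaffold (0.978), Celf4, an RNA-binding protein (0.975), and Mov10, an RNA helicase (0.975). With slide means subtracted the values were 0.933, 0.896, 0.918, 0.920 and 0.860. The most opposed were Caskin1, a synaptic scaffold (-0.966), the transcript DV644831 (-0.966) and Arih1, a ubiquitin ligase (-0.966), at -0.841, -0.861 and -0.896 with slide means subtracted. None of these 8 genes was called in any comparison. High values were common for Gfi1b: Ttll8, at rank 2402 of 20193 genes, still had an r of 0.884. Slide accounted for 81.0% of the variance of Gfi1b, so the genes named are not a specific set.

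The genes next to each locus were not called with a tumor. Around Gfi1 these were 1700028K03Rik, Glmn, Rpap2, Evi5, Ube2d2b and ENSMUST00000121367, and around Gfi1b they were Ralgds, Cel, Gtf3c5, Tsc1, 1700026L06Rik and Ak8. These make 12 genes. With a tumor 0 of them were called in either progenitor, against 1.8% of tested probes in CDPs and 0.0656% in MDPs. At such shares 0 of 12 says little about these loci. The nearest neighbor of Gfi1, Evi5, a Rab GTPase-activating protein at 28.1 kb, had a change in CDPs of -0.09. The largest tumor changes among the 12 lay beside Gfi1b and were not called. That of 1700026L06Rik was -1.65 in MDPs and -1.19 in CDPs (limma adjusted p of 0.113 and 0.0877). That of Ak8 was -1.16 in CDPs (limma adjusted p of 0.245). Glmn was lower in CDPs than in MDPs of tumor-bearing mice by -1.22, and 1700026L06Rik and Ak8, beside Gfi1b, were higher in CDPs without a tumor by 1.60 and 2.09 and with a tumor by 2.06 and 1.78.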

How the data were processed

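The members and gene lists were chosen with earlier results of these data known. The scanner output that the authors deposited comes from Agilent Feature Extraction, version 11.5.1.1, and its processed intensity has the background subtracted, with no scaling between arrays. A second source deposited by the authors, used as an alternative, holds log2 values of 26793 probes. Its columns were each nearest to their own array (r of at least 0.994), and how its probes were selected is not given in the sources used here. The submitters' processing notes name limma.

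After removal of controls and of 182 to 289 outlier spots per array, signals were put on the log2 scale, centered on each array's 75th percentile and averaged per probe. Testing was limited to the 27433 of 39429 probes that were well above background on 3 or more of the 4 arrays of any group, and 0 probes were saturated. A model of the 4 group means over 16 arrays was fitted by limma 3.58.1 (R 4.3.3 and version 1.17.8 of data.table), and the number of arrays limits the precision. Groups and replicate numbers follow the labels, and slides follow the barcode of each array. A gene is given by its brightest tested probe. On simulated data with 200 changed probes among 27301, the fit for the tumor change in CDPs called 67 of 100 changed by 2 log2 units and 32 of 100 changed by 1.

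Genes were named by rule: both members, up to 4 called genes of each list by adjusted p (otherwise the 2 with the largest tumor change), a set of core genes, the 5 most similar and 3 most opposed genes, and the 3 nearest probed genes on each side. Lists cover partners, reported targets, upstream factors, SNAG-domain genes, progenitor markers, and granulocyte, erythroid, megakaryocyte, mast cell and basophil, lymphoid and monocyte markers, written from general knowledge.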

Additional observations from a re-analysis of the deposited data

Results flagged for a closer look

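Of 156 groups of 4 arrays (39 named genes), 12 held an array far from the other 3 by Dixon's test, where chance gives about 5%. For Gfi1 this was tumor-bearing CDP replicate 5, at -2.89 against a nearest value of -1.20. Tumor-free CDP replicate 5 stood apart in 5 genes: Car1 at -6.88, Fcgr1 at -2.37, Cbfa2t3 at 2.46, Kdm1a at 1.14 and Spi1 at 3.76. Tumor-bearing MDP replicate 5 stood apart for Klf1, at -6.24, and for Cbfa2t3, at 1.06. F2r stood apart in tumor-free CDP replicate 3, at -5.08, and in tumor-bearing CDP replicate 5, at -5.85. Ccr2 was high in tumor-free MDP replicate 3, at 0.67, and Flt3 low in tumor-bearing MDP replicate 4, at 0.41. The causes were not tested.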

How the results depend on the processing

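The fall of Gfi1 from MDPs to CDPs was called under all 27 alternatives in both tumor states, from -4.68 to -3.74 without and -3.10 to -2.46 with a tumor. The Gfi1 change in CDPs with a tumor kept its direction under all 27 and lost its call under 14: its value of 1.73 was not called without a filter on dim probes (adjusted p of 0.0511), with only the groups compared (0.176), with the methods' t-test (0.237) or with the replicate block (0.0751), and 10 of 16 fits without 1 array (range 1.54 to 2.19) lost it. Whether replicate numbers pair the samples is not settled. Same-numbered samples had correlations from -0.63 to 0.48, but slide effects were left in, and all pairs on a shared slide were positive. The replicate block changed no other Gfi1 or Gfi1b call. Gfi1b was not called except for its CDP minus MDP difference with a tumor without tumor-bearing MDP replicate 5 (2.11, adjusted p of 0.0352, range 1.07 to 2.11). That difference of 1.59 shrank to 0.53 with the slide block, 0.72 with normexp, and 1.03 with quantile normalization or in the value table, and the Gfi1b difference of tumor changes of 1.54 shrank to 0.47, 0.88 and 1.04 in the same order. The Gfi1b difference in tumor-free mice turned to -0.0070 in the deposited value table, -0.16 with normexp and -0.0061 with quantile normalization, with a range of -0.34 to 0.42 on leaving out 1 array. The Gfi1b tumor change in CDPs turned to -0.32 with the slide block (range -0.15 to 0.47 on leaving out 1 array). Gfi1b could not be tested among probes above background on all 16 arrays, and neither gene has another probe.

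Counts of called probes depended on the setting. With a tumor in CDPs 494 probes were called, against 1248 with the slide block, 56 with only the groups compared and 3 with the methods' t-test (155 to 581 on leaving out 1 array, the lowest without tumor-bearing CDP replicate 4). In MDPs the 18 probes became 44 with the slide block, 11 with quantile normalization, 10 without a filter, with probes above background on all arrays or with the replicate block, 7 in the value table, 6 with normexp, 5 with only the groups compared and 1 with the methods' t-test (1 to 46 on leaving out 1 array, the highest without tumor-bearing MDP replicate 5). For the difference of tumor changes 4 probes became 0 with normexp, quantile normalization or the value table, 1 among probes above background on all arrays and 2 with the slide block (3 to 7). Between progenitors 1673 probes became 2925 with the slide block in tumor-free mice, and 1993 became 800 with only the groups compared and 608 with the methods' t-test in tumor-bearing mice (1127 to 3288). The causes were not tested.

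Of the other values, 10 turned, all small and not called: Insm2 in MDPs to 0.0068 with the slide block, Kdm1a in CDPs to 0.023 with the slide block and Spi1 in CDPs to -0.063 in the value table and -0.064 with quantile normalization, with ranges on leaving out 1 array of -0.22 to 0.085 for Irf8, -0.92 to 0.081 for Insm2 and -0.32 to 0.084 for Kdm1a. Granulocyte genes called in CDPs with a tumor numbered 0 to 5 across alternatives, and partners 0 to 2. The median change of all probes was -0.12 in MDPs with a tumor and 0.19 between progenitors with a tumor, and 0.0012 and -0.0034 after quantile normalization. Dim signal limits Gfi1b. It also bears on Gfi1 in tumor-free CDPs, where the mean of Gfi1 was -3.26, against -3.07 for Gfi1b, though well above background. The fold changes of Gfi1 against that group rest on these low values.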

Other observations

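Within the 8 MDP arrays the signals of Gfi1 and Gfi1b ran opposite, a relation noticed after the values were seen and given without a test. Pearson's r was -0.95 and Spearman's rho was -0.93. Without the 2 arrays farthest from the Gfi1 median r was -0.92 (6 arrays), and r was -0.93 with slide means and -0.95 with group means subtracted. Within the 8 CDP arrays r was -0.17 and rho was -0.10. Without the 2 farthest CDP arrays r was -0.31, and over all 8 it was -0.62 with slide means and -0.52 with group means subtracted. The arrays share slides, which hold most of the variance of Gfi1b, and the difference between the progenitors was not tested. The share of spots well above background ordered the 8 MDP arrays as Gfi1b did, and nearly in reverse of Gfi1. It was 71.2% on tumor-free MDP replicate 4 (Gfi1b -2.28, Gfi1 0.95) and 59.0% on tumor-bearing MDP replicate 4 (-6.04 and 1.77). The part of this array-wide level in the relation was not tested.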
